A study of Mus musculus with 8 samples.

Results

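Round spermatids are the first haploid cells of the male germ line. They form after the second meiotic division, transcribe actively, build the acrosome from Golgi vesicles and begin the tail before the nucleus condenses. CARM1 is a protein arginine methyltransferase that methylates histone H3 and transcriptional coactivators, among them the acetyltransferases p300 and CBP. CREM is a transcription factor of the postmeiotic programme, ACT (Fhl5) is its testis coactivator and KIF17 a kinesin that moves ACT, and the series names p300, ACT and CREM as the axis under study. Here the effect of the Carm1 knockout on RNA levels in round spermatids is described, over the 4 of 8 libraries that hold round spermatids.

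The WT group held 2 libraries of round spermatids of genotype WT and the KO group 2 of genotype cKO, a conditional knockout of Carm1. All came from testis of mice of strain C57BL/6, with no treatment. Cells of each sample were purified from 8 testes by centrifugal elutriation, a separation by size and density, so every library pools animals or testes. The age of the animals, the promoter that drives the Cre and the exons deleted are not stated in the labels. The other 4 libraries held elongating spermatids of both genotypes and entered the fit to add to the estimate of spread. The members were all genes with a normalised read count of at least 10 in at least 2 of the 8 libraries, 15685 of the 16349 genes in the table. Just inside this limit the second-highest value was 10.1, for 1600002K03Rik and Abcb1b among others, and just outside it was 9.70, for 1700026J14Rik and others. The labels do not say whether the 2 libraries of a genotype come from different animals. The p-values therefore reflect the spread of libraries alone, and that spread may be technical. Between the 2 libraries of a group, the mean chi-square per gene of the read counts was 1.37 in WT and 2.31 in KO. The KO pair thus differed by more, relative to counting error, than the WT pair.

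Recovered whole reads numbered 17190962 and 18143970 in the WT libraries and 18318721 and 20720496 in the KO libraries. The label was compared with round spermatid markers, and 18 of 18 had a mean of at least 100 in WT. So had 23 of 27 spermatocyte markers, and this level does not tell the cell types apart. Acrv1, which encodes an acrosomal vesicle protein, measured 3269 and 3269 in WT and 3593 and 3601 in KO libraries. The summed level of these 18 markers was 80129 and 81306 in WT and 89394 and 88591 in KO libraries. Markers of other testis cells were also present. Synaptonemal and other spermatocyte markers summed to 44728 and 45185 in WT and 49013 and 48365 in KO libraries, and Sertoli cell markers to 756 and 740 in WT and 486 and 493 in KO libraries. In such bulk samples, fewer cells of a type and less RNA per cell cannot be told apart.

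Carm1 (chromosome 9, 21546894 to 21592623, GRCm38, plus strand) measured 1649 and 1686 in WT and 1174 and 1343 in KO libraries. Both KO libraries lay below both WT libraries, and the fold change was -0.41 on the log2 scale (SE 0.05, adjusted p = 3.8e-05). Leaving out 1 round library at a time moved it between -0.51 and -0.31. In elongating spermatids the KO-labelled libraries were higher, by log2 0.87. The difference between the stages was -1.28 (adjusted p of the interaction = 1.1e-08). A total over the gene does not show whether the deleted exons were lost, and Yipf2 overlaps Carm1 on the opposite strand, with a kit that does not mark strand. Of the 20 nearest genes in the table, 10 on each side (21265293 to 21935872), 2 rose and 2 fell, where 19.4% and 12.6% of all genes tested did. Dnm2, a dynamin that cuts vesicles from membranes, rose by 0.16. Slc44a2, a choline transporter-like protein, fell by 0.61 and Tmed1, a cargo receptor of the early secretory pathway, by 0.88.

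In round spermatids 3041 genes rose in KO libraries and 1977 fell, where rose and fell mean a Benjamini-Hochberg adjusted p under 0.05 in limma over all genes tested. Called genes made up 32.0% of those tested, rises 19.4% and falls 12.6%. Most of these changes were small, since 3166 of the 5018 called genes (63.1%) changed by less than 1.5-fold. Over 2-fold, 492 genes rose (3.14%) and 437 fell (2.79%), 5.92% in all. KO libraries both lay above both WT libraries for 38.1% of genes and below them for 32.7%. The balance of rises and falls turned on the scaling. With total-count scaling 2197 genes rose (14.0%) and 3059 fell (19.5%), while the median change over all genes went from log2 0.03 to -0.06. Without 1 library, between 2120 and 2293 genes rose and between 1182 and 1400 fell. Under every setting run in which a gene was tested, 1604 genes rose and 919 fell, and 0 were called in opposite directions.

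**Figure D1:**
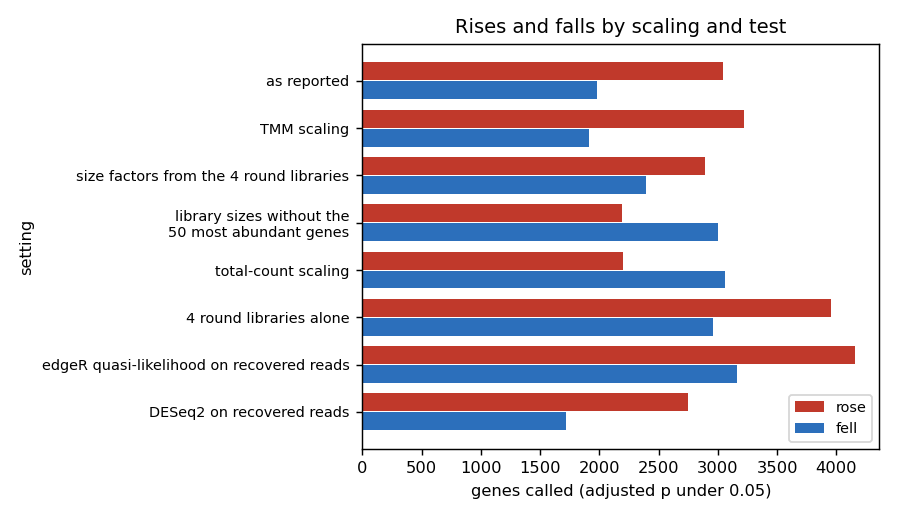
Number of genes that rose (red) and fell (blue) in KO round spermatids under the scaling and test named at each bar. Rises outnumber falls as reported (3041 and 1977) and in the edgeR and DESeq2 fits, and falls outnumber rises with total-count scaling (2197 and 3059) and with library sizes that leave out the 50 most abundant genes (2194 and 3002).

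**Figure D2:**
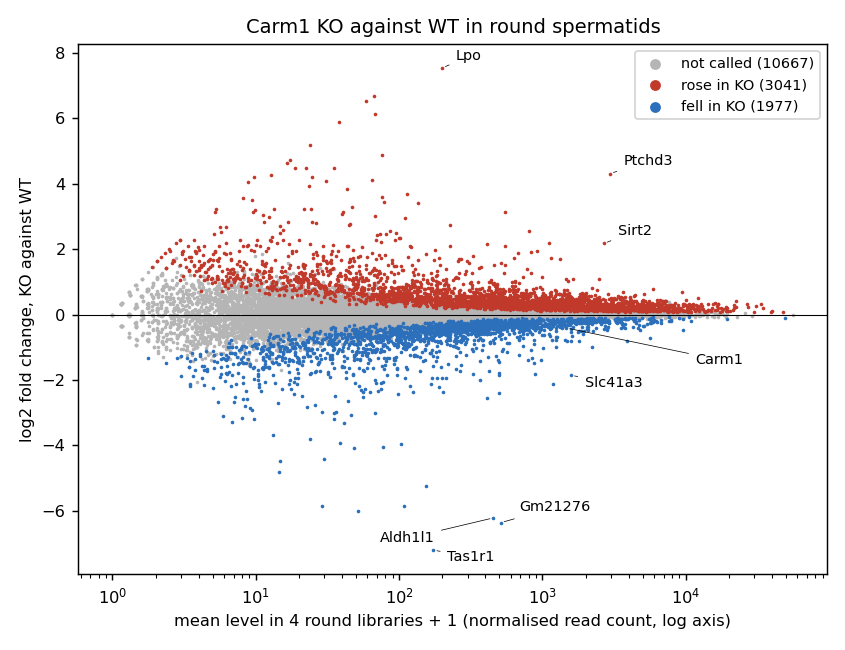
Log2 fold change of KO against WT round spermatids for each of the 15685 genes tested (vertical axis) against the mean normalised read count of the 4 round libraries plus 1 (horizontal log axis). Red points rose (3041), blue points fell (1977) and grey points were not called; the changes of abundant genes lie close to 0, apart from a few such as Ptchd3, Sirt2 and Gm21276.

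The abundant genes with the largest changes were taken from called genes with no overlap between WT and KO libraries. That rule favours small gaps within a group. Ptchd3, a patched-domain membrane protein of male germ cells (chromosome 11, 121830247 to 121843423), measured 288 and 279 in WT and 5628 and 5633 in KO libraries (log2 fold change 4.31, SE 0.06, adjusted p = 2.6e-15). Vav2, a guanine exchange factor for small GTPases (chromosome 2, 27262104 to 27427033), measured 232 and 235 in WT and 1339 and 1406 in KO libraries (log2 fold change 2.55, SE 0.06, adjusted p = 5.9e-13). Sirt2, an NAD-dependent deacetylase whose substrates include tubulin (chromosome 7, 28766735 to 28788661), measured 966 and 984 in WT and 4395 and 4400.4 in KO libraries (log2 fold change 2.17, SE 0.04, adjusted p = 2.4e-14). In each of these the KO libraries differed from each other by far less than from WT. Sirt2 overlaps Nfkbib on the opposite strand, which also rose. Dhrsx, a dehydrogenase of the short-chain family with no matched position, measured 417 and 381 in WT and 1861 and 1770.3 in KO libraries (log2 fold change 2.18, SE 0.06, adjusted p = 5.9e-12).

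Another 5 of the 10 largest rises among genes with a mean of at least 1000 in the higher group had log2 fold changes from 1.38 to 1.94. Kcnab2, a beta subunit of voltage-gated potassium channels, measured 335 and 364 in WT and 1289 and 1321 in KO libraries (log2 fold change 1.90, SE 0.05, adjusted p = 5.9e-12), and it overlaps Nphp4, which fell. Sptbn4, a beta spectrin of the membrane skeleton, measured 528 and 531 in WT and 1835 and 1716 in KO libraries (log2 fold change 1.74). The rule that chose these genes asked for no overlap between WT and KO libraries. Clasrp, a splicing regulator of the SR family, measured 642 and 604 in WT and 2021 and 2049 in KO libraries (log2 fold change 1.71). Ap1g1, the gamma adaptin of the clathrin adaptor AP-1, measured 402 and 462 in WT and 1106 and 1137 in KO libraries (log2 fold change 1.38). The RNA 4933438K21Rik, annotated as antisense and so uncertain without strand, measured 390.1 and 371 in WT and 1527 and 1399 in KO libraries. Sptbn4, Clasrp and Sirt2 all lie on chromosome 7.

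Among the 10 largest falls of genes with a mean of at least 1000 in the higher group, Gm21276, annotated as an unprocessed pseudogene (chromosome 7, 38763034 to 38768184), measured 987 and 1031 in WT and 10.8 and 11.8 in KO libraries (log2 fold change -6.36, SE 0.29, adjusted p = 1.2e-09). As a pseudogene it may share reads with a near-identical copy. Slc41a3, a transporter of the magnesium carrier family (chromosome 6, 90604725 to 90646412), measured 2508 and 2448 in WT and 656 and 712 in KO libraries (log2 fold change -1.86, SE 0.06, adjusted p = 3.2e-11). Its neighbour Aldh1l1, the folate enzyme 10-formyltetrahydrofolate dehydrogenase (chromosome 6, 90486427 to 90600203), measured 889 and 906 in WT and 9.54 and 13.0 in KO libraries (log2 fold change -6.21, SE 0.13, adjusted p = 2.6e-13). Both KO libraries held about the same residual level of each. Gm5114 (chromosome 7, 39407294 to 39413160) measured 1317 and 1430.3 in WT and 364 and 419 in KO libraries and Gm3893 (chromosome 4) 1934 and 1912 in WT and 434 and 446 in KO libraries.

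The remaining falls of this rank were smaller, with log2 fold changes from -1.48 to -1.02. Mxra8, an immunoglobulin-domain adhesion protein, measured 1275 and 1312 in WT and 457 and 468 in KO libraries (log2 fold change -1.48, SE 0.07, adjusted p = 2.6e-09). Slco3a1, an organic anion transporter, measured 1169.5 and 1133 in WT and 434 and 441 in KO libraries (log2 fold change -1.39, SE 0.08, adjusted p = 6.5e-09). Erp29, a chaperone of the endoplasmic reticulum lumen, measured 1214 and 1209 in WT and 483 and 491 in KO libraries (log2 fold change -1.31, SE 0.05, adjusted p = 2e-10), and it overlaps Naa25, which rose. The lack of overlap between WT and KO libraries was part of the rule that chose these genes. Rusc2, an adaptor with RUN and SH3 domains, measured 1149 and 1113 in WT and 510.0 and 564 in KO libraries. The long intergenic RNA C030037D09Rik measured 1471 and 1368 in WT and 554 and 539 in KO libraries. Fam83e, a scaffold of the FAM83 family, measured 1385 and 1331 in WT and 654 and 686 in KO libraries, and it overlaps the acrosomal gene Spaca4, which rose.

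**Figure D3:**
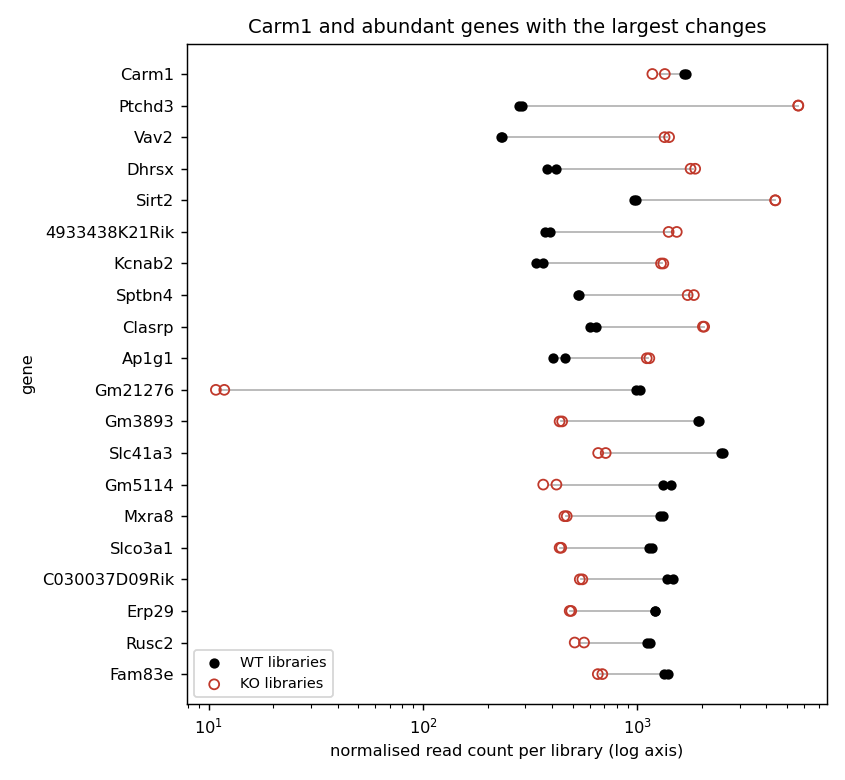
Normalised read count per library (horizontal log axis) of Carm1 and 19 of the 20 genes with the largest changes and a mean of at least 1000 in the higher group. Filled points are WT and open points KO libraries, with a line between the group means; Ptchd3 moves from 288 and 279 to 5628 and 5633, and the groups of Carm1 are close by comparison.

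Among genes with a mean of at least 100 and under 1000 in the higher group, several were close to absent in 1 genotype. Lpo, lactoperoxidase (chromosome 11, 87806428 to 87828289), measured 0.636 and 1.82 in WT and 376 and 416 in KO libraries (log2 fold change 7.53, SE 0.32, adjusted p = 4.4e-10). Vnn1, a pantetheinase (chromosome 10, 23894688 to 23905343), was hit by 1 read in WT and by 437 in KO libraries, a ratio of 421 with an exact 95% interval from 75.1 to 16660. Adgrg7, an adhesion G-protein-coupled receptor (chromosome 16, 56724609 to 56795855), had 1 and 384, a ratio of 370 (66.0 to 14644). These intervals cover counting error only. The gene 1600014C10Rik (chromosome 7, 38183217 to 38197568) had 3 and 442 reads, a ratio of 142 (48.2 to 691). In the other direction Tas1r1, a subunit of the umami taste receptor (chromosome 4, 152027914 to 152038568), measured 335 and 352 in WT and 2.54 and 0.563 in KO libraries (log2 fold change -7.19, SE 0.51, adjusted p = 1e-07). The intergenic RNA 1700063D05Rik (chromosome 9, 41192446 to 41217990) measured 200.4 and 226 in WT and 3.18 and 2.25 in KO libraries (log2 fold change -5.86, SE 0.25, adjusted p = 7.3e-10). Slfn5os was hit by 327 reads in WT and by 2 in KO libraries, a WT to KO ratio of 170 (46.6 to 1408), but it is annotated antisense to Slfn5, which was not called, and Unc45b, which rose.

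In the axis under study Crem, Fhl5 and Kif17 changed by small amounts, and Ep300 by more. Crem measured 3347 and 3336 in WT and 3468 and 3496 in KO libraries (log2 fold change 0.06, adjusted p = 0.22), and -0.03 with total-count scaling. Fhl5, the coactivator ACT, measured 1476 and 1518 in WT and 1697 and 1699 in KO libraries and rose by 0.18 (adjusted p = 0.0052), a call lost with total-count scaling (0.09, adjusted p = 0.091) and without WT replicate 1 (adjusted p = 0.062). Kif17 measured 7816 and 7949.9 in WT and 8557 and 8678 in KO libraries and rose by 0.13 (adjusted p = 0.0014), a call also lost with total-count scaling (0.04, adjusted p = 0.24). Ep300, which encodes p300, measured 1014 and 1035 in WT and 741 and 774 in KO libraries and fell (log2 fold change -0.44, SE 0.06, adjusted p = 7.4e-05). The fall of Ep300 was called under every setting run, from -0.53 with total-count scaling to -0.40 without KO replicate 1. Crem, Fhl5 and Kif17 are given because the title or the background names the axis and not by their rank.

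Across 26 genes of the CREM axis and cAMP signalling, 10 rose and 5 fell (38.5% and 19.2%, beside 19.4% and 12.6% of all genes). The median was log2 -0.04, against 0.03 over all genes. With total-count scaling, 2 rose and 6 fell. Leaving out 1 library left 4 rises (without WT replicate 1) to 7, and 2 rises and 4 falls were called under every setting. Those 2 rises were Fhl4, a LIM-only paralog of ACT, which measured 29553 and 29559 in WT and 36072 and 38545 in KO libraries (log2 fold change 0.34), and Pde4a, a phosphodiesterase that degrades cAMP, 2864 and 2666 in WT and 3284 and 3579 in KO libraries (0.31). The falls included Adcy10, the bicarbonate-sensitive adenylyl cyclase of sperm, which measured 5615 and 5769 in WT and 4564 and 4400.4 in KO libraries (log2 fold change -0.34, SE 0.03, adjusted p = 2e-06). Fhl4 and Adcy10 thus moved in opposite directions. Both values are differences on the log2 scale.

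All 18 CREM-dependent spermatid genes had a WT mean of at least 100. In the highest of 4 equal classes of WT level (above 532) 37.1% of genes rose. The part of level in this list was not tested. Of the 18, 12 rose and 2 fell (66.7% and 11.1%, beside 19.4% and 12.6% of all genes, median 0.12). With total-count scaling, 6 rose and 4 fell. Without WT replicate 2, 7 rose and 2 fell. Pgk2, the testis isozyme of phosphoglycerate kinase, measured 5644 and 5843 in WT and 7055 and 7567 in KO libraries (log2 fold change 0.35, SE 0.03, adjusted p = 3.1e-06). Gapdhs, the glyceraldehyde phosphate dehydrogenase of the sperm tail, measured 12867 and 12682 in WT and 15440.1 and 16451 in KO libraries (log2 fold change 0.32). Tnp2, a transition protein that replaces histones before protamines, measured 24467 and 23296 in WT and 28293 and 31202 in KO libraries (log2 fold change 0.32). All 3 were higher in both KO libraries, as were 38.1% of all genes, and stayed called under every setting. Cyp51, the lanosterol demethylase of sterol synthesis, measured 1101 and 1064 in WT and 812 and 823 in KO libraries (log2 fold change -0.40, SE 0.06, adjusted p = 0.00012). Calm2, a calmodulin gene, measured 1303 and 1321 in WT and 977 and 1009.7 in KO libraries (log2 fold change -0.40). Cyp51 and Calm2 fell under every setting.

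Because CREM binds the cAMP response element, the promoters of named genes were searched for that element and its shared core. Windows of 250 bases before to 50 after each annotated start came from RefSeq (GRCm38.p6) and matched 11901 of the 15685 genes. The shares given here use only the window of the first listed start of each gene. The full palindrome TGACGTCA stood in 3.09% of genes with a window, in 3.22% of those that rose and in 2.69% of those that fell. With any start of a gene counted, these were 3.38%, 3.44% and 3.02%. The core TGACGT, which the palindrome contains, was found on either strand in 11.0% of all, 11.0% of rises and 11.5% of falls. Among genes changed over 2-fold the core was found in 7.82% of rises and 6.67% of falls. Of the 368 genes with the palindrome, 20.1% rose and 11.1% fell, against 19.3% and 12.8% of those without it. A match is a description of the letters and not a site. Shown are 6 named genes that changed over 2-fold and hold the palindrome or the core, with up to 30 bases on each side and the match in capitals (ACGTCA is the core read on the other strand), each written along the strand of its gene. C030037D09Rik fell, and the other 5 rose. The windows lie at chr11:88718409-88718476 (plus strand, C030037D09Rik), chr17:34287860-34287927 (minus, H2-Aa), chr4:152477690-152477755 (minus, Kcnab2), chr7:27446754-27446819 (minus, Sptbn4), chr12:85473794-85473859 (plus, Fos) and chr1:191183334-191183371 (minus, Atf3).
C030037D09Rik: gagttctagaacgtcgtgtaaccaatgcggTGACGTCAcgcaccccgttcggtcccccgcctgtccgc
H2-Aa: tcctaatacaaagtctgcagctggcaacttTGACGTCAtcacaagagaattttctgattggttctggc
Kcnab2: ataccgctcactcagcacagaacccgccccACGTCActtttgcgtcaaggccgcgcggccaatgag
Sptbn4: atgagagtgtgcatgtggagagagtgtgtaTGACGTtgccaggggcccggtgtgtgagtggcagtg
Fos: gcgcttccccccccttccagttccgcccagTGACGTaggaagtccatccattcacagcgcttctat
Atf3: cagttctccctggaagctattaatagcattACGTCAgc

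In the same windows, genes changed over 2-fold had fewer CpG dinucleotides and less GC than all genes tested. The median CpG count was 19 per window over all genes, 10 in rises and 12 in falls over 2-fold, and the median GC content 59.7%, 55.8% and 57.0%. The GC box GGGCGG stood in the first window of 58.1% of all genes, of 43.0% of rises and of 48.5% of falls over 2-fold. TATAAA stood in 7.64%, 11.2% and 8.48%, and CCAAT in 38.3%, 33.0% and 34.2%. Each motif was searched on both strands. Genes changed over 2-fold were also more frequent at low WT levels, and the part of level in these shares was not tested.

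Of 13 arginine methyltransferases and their readers, 2 rose and 1, Carm1, fell (median -0.08), beside 19.4% and 12.6% of all genes, and 0 rose and 3 fell with total-count scaling. The 2 rises, Prmt7 at 0.16 and Jmjd6 at 0.20, were lost with total-count scaling, and without WT replicate 2 the list had 0 rises. The type I enzyme Prmt1 measured 79.5 and 78.7 in WT and 71.9 and 84.0 in KO libraries and the type II enzyme Prmt5 214 and 222 in WT and 194 and 194 in KO libraries, with log2 fold changes of -0.03 and -0.17 and adjusted p of 0.93 and 0.48. Both were chosen for their roles and not by the rule for named genes.

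Among 27 partners and substrates of CARM1, 5 rose and 5 fell (18.5% and 18.5%, beside 19.4% and 12.6% of all genes, median -0.09). With total-count scaling, 3 rose and 9 fell. Without KO replicate 2 or WT replicate 1, 3 rose and 4 fell. Fbxo11, an F-box protein, measured 249 and 245 in WT and 139 and 139 in KO libraries (log2 fold change -0.83, SE 0.10, adjusted p = 2.5e-05). Pkm, pyruvate kinase of glycolysis and a CARM1 substrate, measured 2679 and 2708 in WT and 2045 and 2002 in KO libraries (log2 fold change -0.41, SE 0.03, adjusted p = 1.3e-07). Mef2c, a transcription factor of muscle and neurons that works with CARM1, measured 51.5 and 51.4 in WT and 96.0 and 89.6 in KO libraries (log2 fold change 0.84, SE 0.19, adjusted p = 0.0031). Gapdh, the somatic glycolytic isozyme, measured 409 and 412 in WT and 492 and 516 in KO libraries (log2 fold change 0.30).

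Of 27 genes of the exchange of histones for protamines, 10 rose and 4 fell (37.0% and 14.8%, beside 19.4% and 12.6% of all genes). The median was -0.01. With total-count scaling, 4 rose and 8 fell. Without 1 library 7 to 9 rose and 2 or 3 fell, the 2 falls without KO replicate 2, WT replicate 1 or WT replicate 2. H1fnt, a spermatid linker histone, measured 5308 and 5307 in WT and 3958 and 3974 in KO libraries (log2 fold change -0.42, SE 0.03, adjusted p = 3e-08). H2afb1, a short H2A variant of spermatids, measured 386 and 398 in WT and 328 and 352 in KO libraries (log2 fold change -0.21). Kat8, an acetyltransferase of histone H4, measured 1127 and 1176 in WT and 1495 and 1556 in KO libraries (log2 fold change 0.41, SE 0.05, adjusted p = 1.9e-05), and H3f3a, a replacement H3.3 gene, measured 3800.0 and 3721 in WT and 4463 and 4705 in KO libraries (log2 fold change 0.29). In H1fnt and Kat8 WT and KO differed by more than libraries of a group did, which the choice of called genes favours.

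Genes of the axoneme, the microtubule core of the tail, were among the most one-sided. Of 34 axonemal dyneins and their assembly and docking factors, 17 rose and 0 fell (median 0.17), and 13 rose and 2 fell with total-count scaling. Under every setting 12 of them rose. Dnah2, a heavy chain of the inner arm, measured 2408 and 2443 in WT and 3401 and 3319 in KO libraries (log2 fold change 0.47, SE 0.05, adjusted p = 2.2e-06). Ccdc114, which docks the outer arm, measured 311 and 309 in WT and 584 and 602 in KO libraries (log2 fold change 0.93, SE 0.10, adjusted p = 5e-06). Dnah11, an outer arm heavy chain (overlapping Cdca7l, so its reads are uncertain), measured 14.0 and 16.9 in WT and 196 and 224 in KO libraries (log2 fold change 3.68, SE 0.25, adjusted p = 8.4e-08). The other rises of the list lay between 0.14 and 0.47.

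Intraflagellar transport and BBSome genes, which carry cargo along the growing tail, numbered 36. Of these, 10 rose and 3 fell (27.8% and 8.33%, beside 19.4% and 12.6% of all genes, median 0.09). With total-count scaling, 6 rose and 5 fell. Without WT replicate 1, 5 rose. Ift46, a subunit of the anterograde complex, measured 957 and 918 in WT and 1950.3 and 2039 in KO libraries (log2 fold change 1.09, SE 0.05, adjusted p = 3.3e-09), a change over 2-fold. Ift74, a subunit of the same complex, measured 3559 and 3551 in WT and 3164 and 3022 in KO libraries (log2 fold change -0.20, SE 0.04, adjusted p = 0.0013). Ttc21b, of the retrograde complex, measured 1408 and 1391 in WT and 1739.8 and 1686 in KO libraries (log2 fold change 0.29), and Bbs5, a BBSome subunit, 1013 and 1011 in WT and 897 and 824 in KO libraries (-0.23). Subunits of 1 complex thus moved in opposite directions.

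The manchette is the microtubule skirt that shapes the elongating nucleus. Of 30 genes of the manchette and nuclear shaping, 13 rose and 3 fell (median 0.02), and 10 rose and 9 fell with total-count scaling. Of these, 10 rises and 0 falls were called under every setting, and without 1 library 11 or 12 rose and 0 (without WT replicate 2) to 5 (without KO replicate 1) fell. Lrguk, a guanylate kinase-domain protein needed for head and tail shaping, measured 513 and 509 in WT and 729 and 772 in KO libraries (log2 fold change 0.55, SE 0.09, adjusted p = 0.00033). Odf3b, an outer dense fibre family member, measured 268 and 267 in WT and 375 and 394 in KO libraries (log2 fold change 0.52, SE 0.05, adjusted p = 1.2e-06). Sun5, which ties the tail to the head, measured 2258 and 2286 in WT and 2805 and 2925 in KO libraries (log2 fold change 0.33).

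Of 35 genes of Golgi traffic and the acrosome, 10 rose and 1 fell (28.6% and 2.86%, beside 19.4% and 12.6% of all genes). The median was 0.03. With total-count scaling, however, 4 rose and 9 fell. Without WT replicate 1, or replicate 2, 6 rose. Spaca3, a lysozyme-like acrosomal membrane protein, measured 1261 and 1217 in WT and 1627 and 1782 in KO libraries (log2 fold change 0.46, SE 0.06, adjusted p = 5.4e-05). Spaca4, a membrane protein of the acrosome, measured 1035 and 1065 in WT and 1298 and 1451 in KO libraries (log2 fold change 0.39), and it overlaps Fam83e. Izumo1, the sperm protein that binds the egg receptor, measured 1651 and 1679.7 in WT and 1947 and 1969 in KO libraries (log2 fold change 0.23). Spaca3, Spaca4, Izumo1 and Spata16 were the 4 rises called under every setting. Of the 18 round spermatid markers 9 rose and 0 fell (median 0.14), with 6 and 2 under total-count scaling.

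Genes on the X chromosome that are expressed in spermatids were mostly higher in KO libraries. Of 30 listed, 21 were in the table and 17 passed the filter on low values. Of these 17, 12 rose and 0 fell (median 0.63), and 11 rose and 0 fell with total-count scaling. The edgeR fit called 12 rises and 2 falls. Actrt1, an actin-related protein of the sperm head, measured 217 and 238 in WT and 372 and 389.9 in KO libraries (log2 fold change 0.74, SE 0.06, adjusted p = 4.2e-07). Cypt3, a cysteine-rich protein of the perinuclear theca, measured 473 and 516 in WT and 909 and 809 in KO libraries (log2 fold change 0.79, SE 0.06, adjusted p = 1.6e-07). Cypt2 and Cypt15, of the same family, had log2 fold changes of 0.72 and 0.82. Tex13a measured 662 and 674 in WT and 1059 and 1102 in KO libraries (log2 fold change 0.69, SE 0.04, adjusted p = 6.8e-09), and Cylc1, a cylicin of the perinuclear theca, measured 1415 and 1449.7 in WT and 2116 and 1846 in KO libraries (log2 fold change 0.46). KO libraries lay above WT libraries in each of these, as they did for 38.1% of all genes. Cypt and Tcp11x genes have close copies between which reads may be split. Over the whole X chromosome, 139 of 629 genes rose and 51 fell, 22.1% and 8.11%, with a median of 0.12. On the autosomes 19.3% of 14897 rose and 12.8% fell (median 0.02). With total-count scaling 118 X-linked genes rose and 74 fell, against 2056 and 2966 on the autosomes. Without 1 library, 105 to 115 X-linked genes rose and 26 (without KO replicate 2) to 33 fell, against 1993 to 2160 and 1143 (without WT replicate 2) to 1359 on the autosomes. Of 10 genes in the Y-linked list Eif2s3y, a translation initiation factor, rose (0.22) and Erdr1, which has no position in the annotation used, fell (-0.64), and neither call held under every setting.

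**Figure D4:**
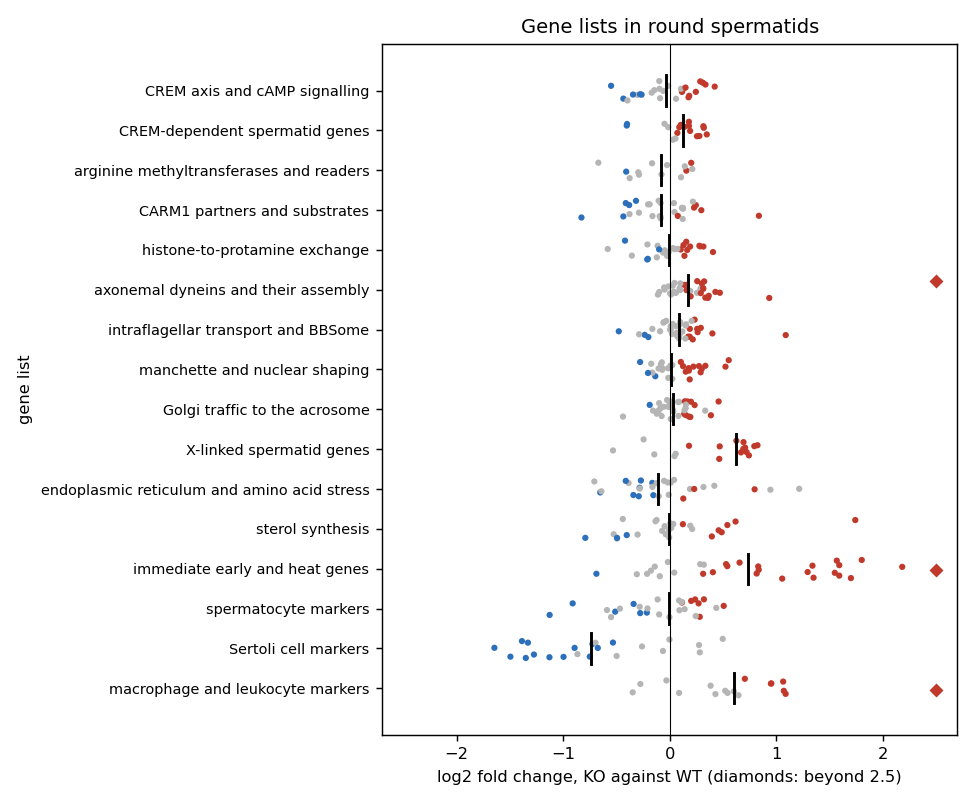
Log2 fold change of KO against WT (horizontal axis) for the tested genes of 16 of the lists. Each point is a gene, red where it rose, blue where it fell and grey where it was not called, diamonds mark values beyond 2.5 and vertical bars the list medians; X-linked spermatid genes and immediate early genes sit to the right (medians 0.63 and 0.74) and Sertoli cell markers to the left (median -0.74).

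Immediate early and heat genes, which cells induce within minutes of a stimulus or of handling, rose in 20 of 30 cases and fell in 1. These were 66.7% and 3.33%, beside 19.4% and 12.6% of all genes (median 0.74). With total-count scaling, 19 rose and 3 fell. Under every setting 15 rose. Fos, a subunit of the AP-1 transcription factor, measured 20.4 and 25.4 in WT and 81.4 and 82.3 in KO libraries (log2 fold change 1.8, SE 0.11, adjusted p = 1.6e-08). Socs3, a feedback inhibitor of cytokine signalling, measured 4.45 and 3.63 in WT and 24.8 and 19.2 in KO libraries (log2 fold change 2.18, SE 0.20, adjusted p = 1.1e-06). Atf3, a stress-induced factor of the ATF family, had 0 in both WT libraries and 17.2 and 17.5 in KO libraries. Dusp1, a phosphatase of MAP kinases and itself an immediate early gene, went the other way, 131 and 146 in WT and 85.2 and 85.6 in KO libraries (log2 fold change -0.69, SE 0.09, adjusted p = 2.5e-05). Most of these genes were low, with a WT mean of at least 100 in 8 of 30, and the summed level was 11982 and 11537 in WT and 14058 and 14031 in KO libraries. Macrophage markers moved with them, in that 7 of 17 rose and 0 fell (median 0.60), with a summed level of 269 and 296 in WT and 1229 and 1228 in KO libraries. Fcgr3, an Fc receptor of leukocytes, was most of the sum in KO libraries, at 113 and 111 in WT and 979 and 997 in KO libraries (log2 fold change 3.13). Apart from it, the macrophage markers were low, as in Csf1r, a receptor of the macrophage lineage, with 14.6 and 16.3 in WT and 34.3 and 27.6 in KO libraries. The part of these cells in the immediate early genes was not tested.

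Genes of the endoplasmic reticulum and amino acid stress response fell more often than they rose. Of 28, 3 rose and 8 fell (10.7% and 28.6%, beside 19.4% and 12.6% of all genes, median -0.11). With total-count scaling, 2 rose and 10 fell. Without WT replicate 2, 2 rose and 2 fell. Pdia4, a disulfide isomerase, measured 598 and 609 in WT and 391 and 376 in KO libraries (log2 fold change -0.65, SE 0.15, adjusted p = 0.004). Hspa5, the chaperone BiP, measured 5858 and 5989 in WT and 4962 and 4773 in KO libraries (log2 fold change -0.28, SE 0.05, adjusted p = 0.00037). Atf6, a membrane-bound sensor that activates these chaperone genes, measured 171 and 179 in WT and 315 and 295 in KO libraries (log2 fold change 0.80, SE 0.11, adjusted p = 8.4e-05). Pdia4 and Hspa5 were lower, and Atf6 higher, in both KO libraries, as were 32.7% and 38.1% of all genes.

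Metabolic lists showed single genes with larger changes. Of 25 genes of one-carbon and methyl-donor metabolism, 3 rose and 3 fell (median 0.08), and 3 rose and 7 fell with total-count scaling. Without any 1 of the libraries, 2 rose and 1 fell. Beside Aldh1l1, Shmt1, the cytosolic serine hydroxymethyltransferase, measured 264 and 316 in WT and 571 and 587 in KO libraries (log2 fold change 1.00, SE 0.14, adjusted p = 7.8e-05). In sterol synthesis and uptake 7 of 26 rose and 3 fell (median -0.01), with 4 and 3 under total-count scaling, and without WT replicate 1 or KO replicate 1 it was 4 and 2. Mvk, mevalonate kinase, measured 78.3 and 81.7 in WT and 127 and 120.0 in KO libraries (log2 fold change 0.62, SE 0.12, adjusted p = 0.0015), against the fall of Cyp51 in the same pathway. In retinoid metabolism 5 of 17 rose and 2 fell (median 0.04), with 4 and 2 under total-count scaling, and without KO replicate 1 it was 2 and 1. Cyp26b1, which degrades retinoic acid, measured 18.5 and 16.3 in WT and 29.3 and 30.4 in KO libraries (log2 fold change 0.75), and Bco1, which cleaves beta-carotene, 429.5 and 437 in WT and 354 and 333 in KO libraries (-0.34).

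Nuclear receptors and clock genes include transcription factors with daily or hormone-dependent activity. Of 27 nuclear receptors 3 rose and 2 fell (median 0.03), beside 19.4% and 12.6% of all genes, with 2 and 2 under total-count scaling and 2 and 1 without KO replicate 2 or WT replicate 1. Nr2c1, the testicular orphan receptor TR2, measured 367 and 415 in WT and 612 and 637 in KO libraries (log2 fold change 0.68, SE 0.09, adjusted p = 3e-05). Thra, a thyroid hormone receptor, measured 66.2 and 69.6 in WT and 111 and 114 in KO libraries (log2 fold change 0.72), while Nr0b1, a corepressor of steroidogenic cells, was low at 6.36 and 5.45 in WT and 0.636 and 1.69 in KO libraries. Of 22 clock genes 4 rose and 5 fell (18.2% and 22.7%, median -0.03), with 4 and 7 under total-count scaling and 2 and 2 without WT replicate 1 or KO replicate 2. The rises of Dbp, Npas2 and Bhlhe40 were over 2-fold, and that of Dbp was called under every setting. Npas2 and Bhlhe40 lost the call in DESeq2 and with a pseudocount of 10 (log2 fold changes 0.46 and 0.45). Dbp, an output factor of the clock, measured 14.0 and 12.7 in WT and 49.0 and 53.5 in KO libraries (log2 fold change 1.86, SE 0.24, adjusted p = 3.1e-05) and Rora, which activates Arntl, 279 and 297 in WT and 207 and 202 in KO libraries (log2 fold change -0.49, SE 0.07, adjusted p = 8.8e-05).

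Of 29 interferon genes 2 rose and 1 fell (median 0.10), with 1 and 2 under total-count scaling and 1 and 1 without KO replicate 2 or WT replicate 1. Stat2, a transducer of interferon signals, measured 17.8 and 27.2 in WT and 237 and 255 in KO libraries (log2 fold change 3.42, SE 0.19, adjusted p = 6.8e-09). Slfn8, a Schlafen gene, measured 28.6 and 25.4 in WT and 0 and 0 in KO libraries, so that it had 0 in both KO libraries. Of 27 antigen presentation genes 7 rose and 4 fell (median 0.07), with 7 and 6 under total-count scaling and 5 and 2 without WT replicate 2. The 7 rises and 4 falls are 25.9% and 14.8% of that list. H2-DMa, which loads class II molecules, measured 104 and 108 in WT and 237 and 226 in KO libraries (log2 fold change 1.12, SE 0.10, adjusted p = 1.1e-06). H2-Aa, a class II chain, measured 3.18 and 2.42 in WT and 8.90 and 11.3 in KO libraries (log2 fold change 1.54). H2-K1, a class I chain, measured 549.8 and 576 in WT and 385 and 412 in KO libraries (log2 fold change -0.50, SE 0.09, adjusted p = 0.00061). Class II genes are also expressed by macrophages, whose markers were higher in KO libraries, and their part in these values was not tested.

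Spermatocyte markers split by gene. Of 27, 7 rose and 6 fell (25.9% and 22.2%, beside 19.4% and 12.6% of all genes, median 0.00). With total-count scaling, 5 rose and 7 fell. Dmc1, the meiotic recombinase, measured 267 and 299 in WT and 148 and 152 in KO libraries (log2 fold change -0.91, SE 0.17, adjusted p = 0.00076) and Sycp3, a protein of the synaptonemal axis, 659.9 and 679 in WT and 476 and 462 in KO libraries (log2 fold change -0.51, SE 0.12, adjusted p = 0.0035). Stag3, a meiotic cohesin, measured 6139.7 and 6058 in WT and 7531 and 7705 in KO libraries (log2 fold change 0.32, SE 0.04, adjusted p = 8.3e-06). Leaving out 1 library left 5 rises each time and 3 to 6 falls, the 3 without KO replicate 2 or WT replicate 2. Of 19 spermatogonia markers 4 rose and 0 fell (median 0.12), and 0 rose and 1 fell when total counts set the scale or KO replicate 2 was left out.

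Sertoli cell markers, whose cells nurse the germ line, had 13 falls and 0 rises among 22 genes (median -0.74). The falls were 59.1% of the list, where 19.4% of all genes rose and 12.6% fell. With total-count scaling there were 14 falls and 0 rises. Aard measured 52.8 and 52.1 in WT and 19.1 and 13.5 in KO libraries (log2 fold change -1.65, SE 0.14, adjusted p = 8.7e-07) and Gstm6, a glutathione transferase, 19.7 and 20.6 in WT and 8.27 and 5.07 in KO libraries (log2 fold change -1.50, SE 0.22, adjusted p = 0.00013). Clu, clusterin, a secreted chaperone, measured 115 and 125 in WT and 67.4 and 74.4 in KO libraries (log2 fold change -0.75). All 3 were lower in both KO libraries, as were 32.7% of all genes. A WT mean of at least 100 was reached by 2 of 22. The defining gene Fshr, the receptor for follicle-stimulating hormone, was near 0 in every round library, at 0.636 and 0.605 in WT and 0 and 0 in KO libraries. Of 20 peritubular and vascular markers 8 rose and 2 fell (median 0.25), as with total-count scaling, and without WT replicate 1 it was 4 and 1. Vwf, von Willebrand factor of endothelium, measured 130.4 and 133 in WT and 234 and 233 in KO libraries (log2 fold change 0.82, SE 0.07, adjusted p = 3.8e-07) and Igfbp7, a secreted binding protein, 11.5 and 12.7 in WT and 24.8 and 33.8 in KO libraries (log2 fold change 1.20, SE 0.17, adjusted p = 7.9e-05). Of 6 Leydig cell markers 0 rose and 2 fell (1 without KO replicate 2 or WT replicate 1), but the median was 0.27. Their summed level was 39.5 and 35.7 in WT and 30.5 and 31.0 in KO libraries. The 1 tested epididymis marker, Rnase10, fell (43.3 and 35.1 in WT and 11.4 and 10.7 in KO libraries, log2 fold change -1.73), and the 1 tested red blood cell marker was not called. The part of these cells in the other lists was not tested.

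Rises and falls were spread unevenly over levels. Genes were divided by WT level, 1 side of the comparison, into 4 classes of equal size. The lowest class reached a WT mean of 0. Genes near 0 in WT passed the filter only through KO or elongating libraries and could hardly fall. The split of rises and falls in that class was thus partly set by the sorting and the filter. In the highest class (above 532), 37.1% rose and 15.0% fell, yet 0.816% changed over 2-fold. In the lowest class (up to 24.5) 456 rose and 218 fell, and 12.9% changed over 2-fold. Without KO replicate 2, 272 of this class rose, and without WT replicate 1, 103 fell. The excess of rises among abundant genes turned with total-count scaling, to 898 rises and 1042 falls. By type, 5.52% of 14412 protein-coding genes changed over 2-fold, 14.3% of 455 long intergenic RNAs and 8.50% of 306 antisense genes.

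Chromosomes differed in the share of genes changed over 2-fold. Chromosome 13 had the highest share, 11.3%, and chromosome 7 the second, 9.44%, with 302 rises and 154 falls among 1186 genes. Chromosome 12 had 8.16% and chromosome 1 had 7.93%. Among the autosomes chromosome 2 had the lowest, 3.96%, against 5.92% over all genes. The shares are descriptions with no test.

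**Figure D5:**
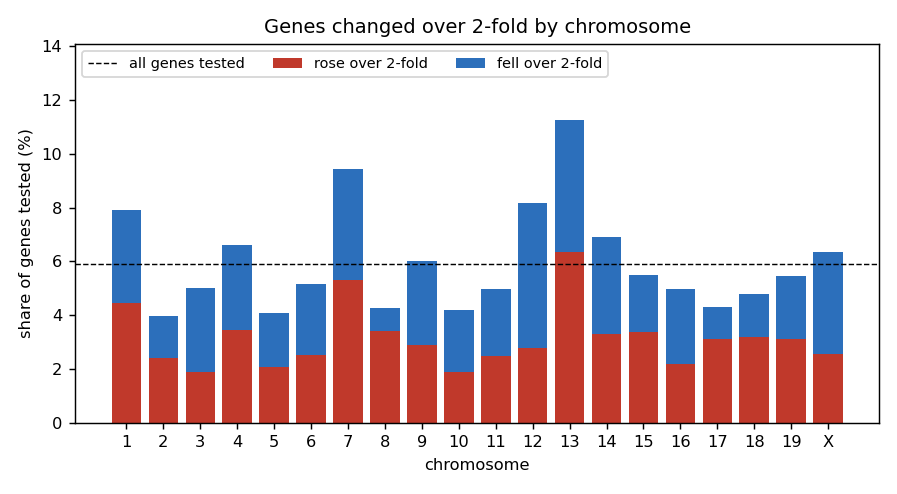
Share of tested genes changed over 2-fold and called, in percent, for each chromosome except Y. The red part of a bar rose and the blue part fell in KO round spermatids, and the dashed line is the share over all genes (5.92%); chromosomes 13 (11.3%) and 7 (9.44%) stand highest.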

How the data were processed

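Poly A RNA of 4 round and 4 elongating spermatid libraries was used. Per the submitters' processing notes, the tools were HTSeq 0.6.0, DESeq 1.16.0, TopHat2 2.0.10 and CASAVA 1.8.2 and the builds mm10 and GRCm38, with no role, strand setting or annotation stated. The signal the authors deposited is a normalised read count per gene, whose steps are whole reads over one size factor per library (100% of values came out whole, within 1e-06). The lowest total over the 8 libraries was 15 reads, so genes below that are not analysed here. Round libraries held 17190962 to 20720496 reads.

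The test was limma-trend (limma 3.58.1, R 4.3.3) of log2(value + 1), in 1 model of 4 group means over 8 libraries with 4 residual degrees of freedom. Fold changes use that scale, so changes of low genes are understated. Calls had a two-sided Benjamini-Hochberg adjusted p under 0.05 over 15685 genes. On simulated data with 200 changed genes it recovered 73.1% at 1.5-fold, 92.5% at 2-fold and 100% at 4-fold, with 4 unchanged genes called. The simulation changed far fewer genes than the 5018 called here, and only genes with a round mean of at least 50. Recovery below that level was not measured. Alternatives were other pseudocounts, filters and scalings, the round libraries alone, edgeR 4.0.16 and DESeq2 1.42.0 on recovered reads, 1 library left out and a replicate block.

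Named genes were Carm1, called genes around it, the 10 largest rises and falls with a mean of at least 1000 in the higher group, the 4 largest of each between 100 and 1000, and up to 3 called rises and falls per list. Genes ranked over all genes also had to be called, with no overlap between WT and KO libraries. The 45 named genes that lost the call in a setting are mostly given only in counts. A few genes that the rule names are not reported here. Acrv1, Crem, Fhl5, Kif17, Prmt1, Prmt5, Spata16, Csf1r, Clu and Fshr lie outside the rule and were chosen with values known. The members and the 29 gene lists were chosen with earlier results of these data known. Positions came from GENCODE M21 (GRCm38), by symbol for 15699 genes and through RefSeq synonyms for 484, and 166 were unmatched.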

Additional observations from a re-analysis of the deposited data

Results flagged for a closer look

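The knockout difference was larger or smaller in round than in elongating spermatids (interaction term of the limma fit, adjusted p under 0.05) for Carm1 and for 22 of the 27 genes named over all genes tested. Values are the round minus the elongating log2 fold change. In elongating spermatids the KO-labelled libraries had the higher Carm1 total, which does not show whether the deleted exons were lost. The fold changes of these 27 genes had the same sign at both stages. Ptchd3 had 4.31 in round and 4.04 in elongating spermatids, and Gm21276 -6.36 and -6.00. Whether the labels are right was not tested. Carm1 differed by -1.28.

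Among genes that rose in round spermatids, the rise was larger there for Clasrp (1.69), which rose by 1.71 in round spermatids and had a log2 fold change of 0.02 in elongating ones, Dhrsx (1.01), Vav2 (0.93), Sirt2 (0.90), Ap1g1 (0.72), Sptbn4 (0.46) and Ptchd3 (0.27). It was smaller for Kcnab2 (-1.05). Among low genes it was larger for 1600014C10Rik (3.65), Vnn1 (3.41), Adgrg7 (2.20) and Lpo (1.95).

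Among genes that fell, the fall was larger in round spermatids for Aldh1l1 (-2.50), Gm3893 (-0.53) and Mxra8 (-0.33). It was smaller in round than in elongating spermatids for 1700063D05Rik (3.91), Slfn5os (3.14), Slc41a3 (2.06), Fam83e (1.39), Rusc2 (0.58), Erp29 (0.26) and C030037D09Rik (0.22). Values of genes with few reads in 1 genotype depend on the pseudocount.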

How the results depend on the processing

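Genes named by the rule kept their direction in every setting in which they were tested (133 of 139 under the filter at 50), and none of the 27 genes chosen over all genes lost its call. Of all 139 named genes besides Carm1, 45 lost the call in at least 1 setting, 44 of them when 1 library was left out. Falls numbered 3163 in edgeR, 3059 with total-count scaling and 3002 with library sizes without the 50 most abundant genes, against 1977 as reported. Rises were 41.8% and 42.2% of calls under these 2 scalings, against 60.6%. With a pseudocount of 10, 229 genes rose and 202 fell over 2-fold. Without 1 library, calls numbered 3359 to 3693, rises 2120 to 2293, falls 1182 to 1400, rises over 2-fold 374 to 424 and falls over 2-fold 340 to 396, and Carm1 was -0.51 to -0.31. The filter at 50 gave 337 rises and 299 falls over 2-fold. Deviations of same-numbered WT and KO libraries from their group means had a correlation of 0.00016 over 15685 genes in round spermatids. No shared deviation was thus seen, which cannot exclude that same-numbered libraries were prepared together. With a replicate block within stage 2788 genes rose and 1779 fell, and Carm1 was -0.41. Crem, outside the rule and not called, was 0.06 as reported and -0.03 with total-count scaling and with library sizes without the 50 most abundant genes. Depth was not varied. In the lowest of 4 classes of WT level 11.6% and 5.56% of genes were called higher and lower, against 37.1% and 15.0% in the highest. Genes near 0 in WT could hardly fall.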

Other observations

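Genes changed over 2-fold lay near each other more often than other genes did, a pattern noticed in these data and described with no test. Of 920 such genes with a position, 177 (19.2%) had a neighbouring tested gene, not overlapping, that also changed over 2-fold, against 1591 of 14620 (10.9%) of the other genes. For 104 of these genes such a neighbour moved the same way and for 84 the opposite way, and some had both. Over windows of 5 Mb with at least 10 tested genes, the share changed over 2-fold, 5.92% over all genes, was highest from 115 to 120 Mb of chromosome 12 (5 of 11), 50 to 55 Mb of chromosome 12 (6 of 19) and 50 to 55 Mb of chromosome 3 (7 of 23). The windows described next were chosen after their values were seen and ranked 11 and 4. In the window of chromosome 7 from 15 to 20 Mb, 8 of 79 genes rose and 11 fell over 2-fold (24.1%). There Psg19, a pregnancy-specific glycoprotein, measured 56.6 and 55.7 in WT and 0 in KO libraries, and Foxa3, a forkhead factor, 29.9 and 29.7 in WT and 3.18 and 6.76 in KO libraries. Nova2, a splicing regulator of neurons, measured 199.8 and 199.1 in WT and 534 and 559 in KO libraries. In the window of chromosome 13 from 110 to 115 Mb, 8 of 27 genes changed over 2-fold (29.6%), and from 110 to 120 Mb 13 of 45 (28.9%). Ccno, a cyclin of multiciliated cells, measured 40.7 and 46.6 in WT and 179.96 and 202 in KO libraries, and Itga2, an integrin, 116 and 119 in WT and 40.7 and 45.6 in KO libraries.

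Among 77 symbol families with at least 20 tested members, the share of rises was highest in Sec (12 of 27), Rpl (21 of 48, many with pseudogene copies), Spata (12 of 28), Gpr (13 of 34) and Ube (14 of 41). The share of falls was highest in Col (10 of 40, with 11 rises), Klhl (6 of 27), Taf (5 of 23), Sh (7 of 33) and Myo (5 of 24), against 19.4% and 12.6% over all genes. These families are letters before the first digit of a symbol, and their counts under other scalings were not computed.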
